A study of Mus musculus with 3 samples.

Results

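Day 7 immobilized mesenchymal stem cells were compared with uninjured day 0 cells by the positions at which ATAC-seq peaks were called in each. ATAC-seq marks open chromatin by inserting sequencing adapters with a transposase, and a summit is the position of the highest signal in a called peak. Each list was ranked by the authors' score and the day 7 list was reduced to the length of the day 0 list, 51722 summits. After each summit was widened by 250 bp on both sides and overlapping windows were merged, the 2 libraries gave 65206 regions on chromosomes 1 to 19, of 78994 from the 3 deposited lists. Regions called only at day 7 numbered 15128 (23.2%), those called only at day 0 numbered 14375 (22%), and 35703 (54.8%) were called in both. Near-equal numbers on the 2 sides follow from the equal list lengths and are not a finding.

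The series has 3 mouse libraries made by the Omni-ATAC protocol, 1 per group: cells before injury (day 0), cells labelled as immobilized at day 7 after injury, and cells labelled as non-immobilized at day 7, used here only as a further readout. The kind of injury, the strain and age of the mice, the number of animals per library and the way the cells were isolated were not found in the labels. With 1 library per group there is no replicate check, no p-value is given, and injury, time, immobilization and library cannot be told apart. Each interval in parentheses is the exact 95% binomial (Clopper-Pearson) one and holds counting error alone. It takes regions as independent, although regions of a kind lay beside each other, so it can be too narrow. Sequencing gave 176119937 read pairs at day 0 and 143818952 at day 7 immobilized. Duplicates made up 60.2% and 43.4% of them, and the deposited lists held 51722 and 67404 summits. The lists were thus not equally deep: the lowest score kept was 1.42 at day 0 and 5.84 at day 7, and 15682 weaker day 7 summits (23.3%) were left out.

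Mesenchymal stem cells are stromal cells that can form bone, cartilage, fat and tendon cells, and after injury they can give rise to bone outside the skeleton. Promoters tend to be open in many cell types, while enhancers, often far from genes, open and close with cell type and stimulus. AP-1 is a family of Fos and Jun dimers, induced by injury and mechanical load, that binds the palindrome TGANTCA in enhancers and some promoters. Trp63, Grhl3 and related factors direct epithelial programs, while Rgs5, Abcc9 and Kcnj8 mark pericytes, the mural cells of capillaries.

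The sequences below are promoters that were called in a single library and carry the contrast described further on, each running from 250 bp before to 50 bp after the start site in RefSeq (GRCm38.p6, the assembly of mm10), 5′ to 3′ on the gene's strand. Capitals mark every match to TGANTCA, which reads the same on both strands. Ptpre (a tyrosine phosphatase, chr7:135605578-135605877, plus strand), Dmkn (an epidermal secreted protein, chr7:30776155-30776454, plus), Serpinb5 (maspin, an epithelial serpin, chr1:106860925-106861224, plus) and Scel (sciellin, of the cornified envelope, chr14:103513091-103513390, plus) were the 4 best-ranked promoters with a match called only at day 7 and without a day 0 summit within 1 kb. Cldn4 (a tight-junction claudin, chr5:134946885-134947184, minus) held 2 matches and Krt5 (a basal keratin, chr15:101712856-101713155, minus) none. Rgs5 (chr1:169655251-169655550, plus) was called only at day 0 and held none. All 7 were chosen after their values were seen.
Ptpre: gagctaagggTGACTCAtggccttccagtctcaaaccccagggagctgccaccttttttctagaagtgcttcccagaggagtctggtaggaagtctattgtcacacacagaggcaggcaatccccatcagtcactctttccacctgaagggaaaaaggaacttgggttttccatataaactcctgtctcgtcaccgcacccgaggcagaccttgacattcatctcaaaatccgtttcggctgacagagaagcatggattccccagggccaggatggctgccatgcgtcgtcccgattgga
Dmkn: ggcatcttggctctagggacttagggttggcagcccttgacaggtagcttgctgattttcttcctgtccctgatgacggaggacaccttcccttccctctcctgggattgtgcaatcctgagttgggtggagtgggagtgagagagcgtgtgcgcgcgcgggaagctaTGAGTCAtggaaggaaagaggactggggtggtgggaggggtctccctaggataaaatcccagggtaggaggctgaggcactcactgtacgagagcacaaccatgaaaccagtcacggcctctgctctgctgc
Serpinb5: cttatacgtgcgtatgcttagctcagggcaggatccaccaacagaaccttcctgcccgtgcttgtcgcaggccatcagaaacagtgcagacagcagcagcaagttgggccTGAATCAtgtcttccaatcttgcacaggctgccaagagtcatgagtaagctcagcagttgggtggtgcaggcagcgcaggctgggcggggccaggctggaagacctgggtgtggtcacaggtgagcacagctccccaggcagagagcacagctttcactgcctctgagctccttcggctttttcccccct
Scel: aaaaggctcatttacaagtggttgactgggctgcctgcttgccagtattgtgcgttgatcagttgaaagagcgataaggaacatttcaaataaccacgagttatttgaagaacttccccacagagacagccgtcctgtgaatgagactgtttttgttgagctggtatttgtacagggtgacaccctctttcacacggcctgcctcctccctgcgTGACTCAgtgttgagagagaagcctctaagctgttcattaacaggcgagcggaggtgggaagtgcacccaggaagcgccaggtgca
Cldn4: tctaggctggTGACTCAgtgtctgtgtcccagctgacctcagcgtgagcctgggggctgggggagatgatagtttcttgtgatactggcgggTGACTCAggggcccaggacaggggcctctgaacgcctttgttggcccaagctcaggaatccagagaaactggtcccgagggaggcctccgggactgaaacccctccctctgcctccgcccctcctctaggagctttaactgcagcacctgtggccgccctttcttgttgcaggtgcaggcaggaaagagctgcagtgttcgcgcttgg
Krt5: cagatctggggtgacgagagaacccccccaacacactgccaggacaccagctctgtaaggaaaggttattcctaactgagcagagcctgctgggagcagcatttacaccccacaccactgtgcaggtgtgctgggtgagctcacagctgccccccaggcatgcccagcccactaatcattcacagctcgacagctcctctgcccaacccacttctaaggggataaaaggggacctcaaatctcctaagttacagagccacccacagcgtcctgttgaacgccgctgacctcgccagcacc
Rgs5: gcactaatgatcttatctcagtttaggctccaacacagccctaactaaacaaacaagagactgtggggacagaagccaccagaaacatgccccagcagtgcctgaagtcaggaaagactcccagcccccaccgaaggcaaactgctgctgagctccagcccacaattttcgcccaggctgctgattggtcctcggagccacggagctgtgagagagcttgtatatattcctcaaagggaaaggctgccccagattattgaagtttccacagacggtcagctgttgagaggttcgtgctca

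The Ptpre summit lay at -306 bp from the start site and the Scel summit at -39 bp. In the day 7 list the Ptpre summit ranked at 24.0% from the top (score 29.5), Dmkn at 26.0%, Serpinb5 at 26.4% and Scel at 26.6%. The Krt5 summit ranked at 60.4% and the Cldn4 summit at 72.9%. The Rgs5 summit ranked at 54.8% of the day 0 list, with the nearest day 7 summit of the whole deposited list 10134 bp away. For Krt5 the nearest day 0 summit was 59997 bp away. Summits of the non-immobilized day 7 library were present at the Ptpre and Serpinb5 regions and not at those of Dmkn, Scel, Cldn4, Krt5 or Rgs5.

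The strongest peaks were shared. Of the 5172 regions in the best 10% of the day 7 list, 5148 (99.5%) were also called at day 0, and of 5171 in the best 10% of the day 0 list, 5140 (99.4%) were also called at day 7. Summits of shared regions lay a median of 24 bp apart. One-library regions were weak: their median rank was 73.7% at day 7 and 76.6% at day 0, against 30.8% for shared regions, which take the better of 2 ranks. Within the better-ranked 50% of its list lay 18.1% of the day 7-only and 11.8% of the day 0-only regions. The best 25% held 234 day 7-only and 165 day 0-only regions, and 14479 shared ones.

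**Figure D1:**
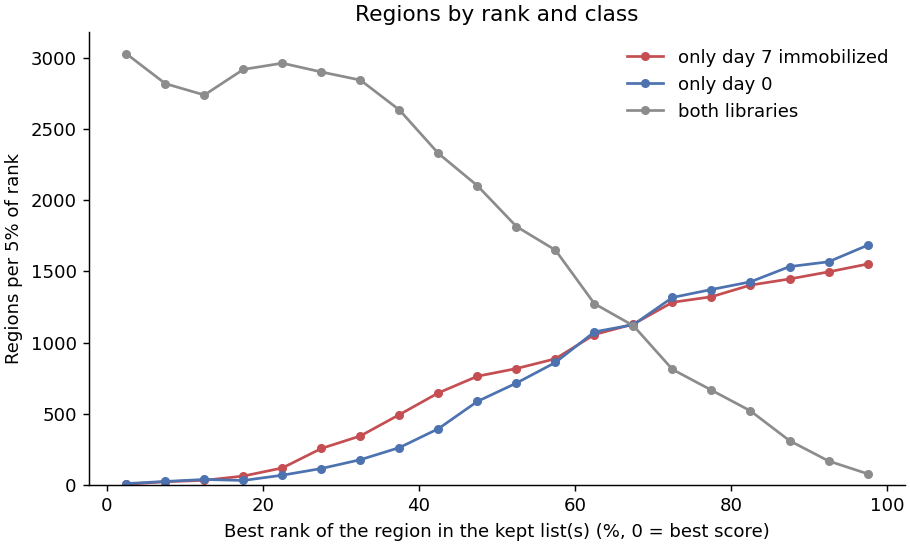
Number of regions by rank within the list (horizontal axis, percent from the top, in bins) for regions called only at day 7 immobilized, only at day 0 and in both. Shared regions fill the best ranks and one-library regions the weakest, with medians of 30.8%, 73.7% and 76.6%.

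A summit can be absent from one list because its peak was placed slightly aside. The best-ranked one-library regions included such pairs. At Ywhaz, a 14-3-3 protein gene, a day 7-only region ranked at 9.90% and a day 0-only region at 11.1%, with summits 1.02 kb apart. Gtf2i and Hnrnpu showed the same arrangement, with summits 1.32 kb and 1.07 kb apart. Of the 234 day 7-only regions in the best 25%, 110 had no day 0 summit within 1 kb, and of the 165 day 0-only regions 21 had no deposited day 7 summit within 1 kb. The strong regions without such a neighbour at day 7 included 1 inside Cc2d2a, a ciliary gene (rank 15.4%, nearest day 0 summit 20.4 kb away). Another lay 3.49 kb outside Ephb3, an ephrin receptor gene (17.1%, 12.3 kb), and another inside Osbpl3, which encodes a lipid-binding protein (17.2%, 11.2 kb). All 3 were also called in the non-immobilized library. At day 0 they included a region beside Blnk, a B-cell adaptor gene (nearest day 7 summit 8.63 kb away), and 1 beside Btnl6, a butyrophilin-like gene (19.7%, 48.0 kb). Another lay 933 kb from Cited2, the nearest protein-coding gene, and 153 kb from the nearest day 7 summit (21.2%). None of these 3 was called in the non-immobilized library. Of all 21 such day 0-only regions, however, 6 (28.6%, 11.3 to 52.2) were called there. Of all 110 such day 7-only regions, 94 (85.5%, 77.5 to 91.5) were.

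The unequal depth bears on the sides differently. Among day 0-only regions, 4154 (28.9%, 28.2 to 29.6) had a left-out, weaker day 7 summit within 500 bp, and 8398 had no deposited day 7 summit within 1 kb. Among day 7-only regions none of 15128 had a day 0 summit within 500 bp, since the whole day 0 list was kept, and 13583 had none within 1 kb. A count "without a summit of the other list within 1 kb" is therefore given beside the genes with the largest differences and the lists that lay apart from all genes. Such a summit lay within 1 kb of 10.2% of all day 7-only and 41.6% of all day 0-only regions. A gene or list near those shares does not stand apart by this count.

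Shared regions also differed in rank. Spearman's rho between the 2 ranks was 0.827 over the 35703 shared regions, as a description, since regions of 1 library share its depth. No shared region in the best 10% of one list was in the worse 50% of the other. In the best 25% at day 7 and the worse 50% at day 0 lay 246 shared regions, and 201 in the reverse case. The largest difference in favour of day 7 was 28.1 kb from Insig2, a regulator of sterol synthesis, at 18.4% of the day 7 list and 99.5% of the day 0 list. A region 0.5 kb from Cxadr, which encodes an epithelial junction protein, ranked at 20.4% and 96.2%. In favour of day 0, a region near Afap1l2, an actin filament-associated gene, ranked at 99.3% at day 7 and 19.2% at day 0. Regions near Rbm19, Mrpl48, Ankrd27 and Sdc2 followed, the last beside the gene for syndecan-2, a heparan sulfate proteoglycan, at 97.0% and 23.9%.

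One-library regions lay away from gene starts on both sides, and those of day 0 lay farther. Within 1 kb of the start of a protein-coding gene were 8.16% (7.73 to 8.61) of day 7-only regions and 8.19% (7.75 to 8.66) of day 0-only regions, against 33.2% (32.7 to 33.7) of shared ones. More than 50 kb from any start were 30.7% (30.0 to 31.4) at day 7 only and 38.8% (38.0 to 39.6) at day 0 only, with median distances of 24.3 kb and 32.6 kb. The difference of these shares held at like rank. At ranks of 25% to 50%, 50% to 75% and 75% to 100%, 30.8%, 30.1% and 31.4% of day 7-only regions lay beyond 50 kb, against 37.3%, 38.2% and 40.0% of day 0-only regions, and no pair of intervals overlapped. In the best 25% the intervals overlapped (18.4%, 13.6 to 23.9, and 12.7%, 8.05 to 18.8). At like score the day 0 share was also higher, for example 38.4% against 31.8% for scores of 6 to 8, except above 20, where it was 21.1% (16.4 to 26.4) against 27.1% (24.2 to 30.2). Inside a gene lay 52.3% and 54.6% of one-library regions and 54.3% of shared ones.

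**Figure D2:**
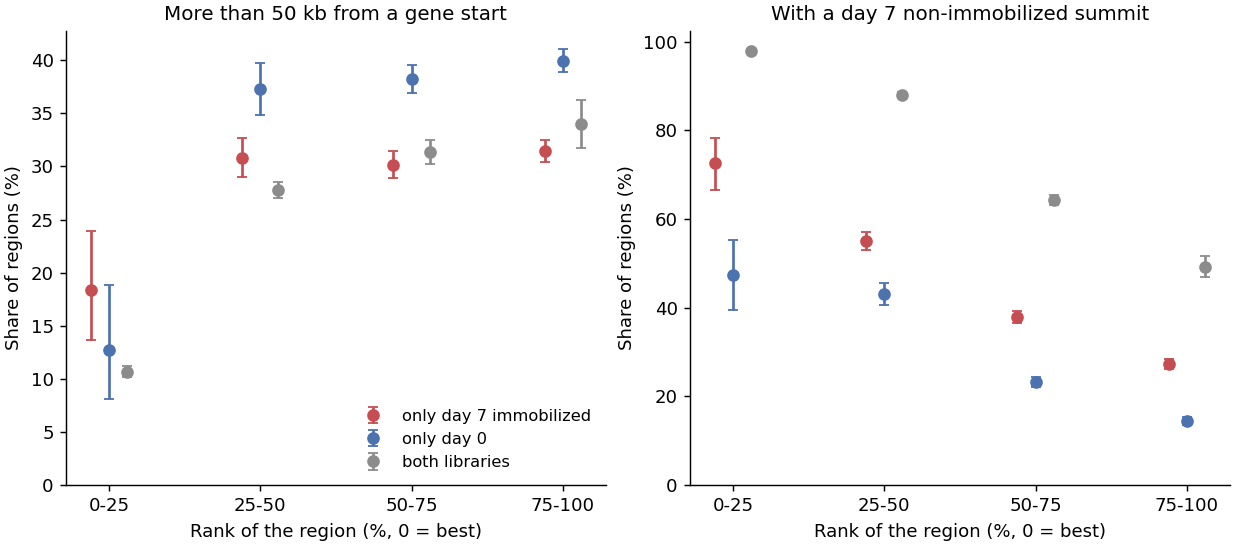
Share of regions more than 50 kb from a gene start and share with a summit in the non-immobilized day 7 library, in percent, by rank in steps of 25%, for the 3 classes of region, with exact 95% intervals. Beyond the best 25% the day 0-only regions lie beyond 50 kb more often than the day 7-only regions (37.3% to 40.0% against 30.1% to 31.4%).

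The non-immobilized day 7 library held a summit in 36.2% (35.4 to 36.9) of day 7-only regions, 20.9% (20.3 to 21.6) of day 0-only regions and 85.7% of shared ones. The share fell with rank on both sides. It was 72.6% and 47.3% in the best 25% and 27.2% and 14.4% in the weakest 25%, for day 7-only and day 0-only regions. At like score the shares were 26.2% and 20.4% for scores of 6 to 8, 34.8% and 28.4% for 8 to 12, and 66.9% and 49.8% above 20, with separate intervals in each case. For scores of 12 to 20 the intervals overlapped (47.0 to 50.6 and 41.9 to 48.2).

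Regions of a kind lay beside each other. The nearest neighbour of a day 7-only region was another day 7-only region in 34.5% of cases (33.7 to 35.3), against their 23.2% share of all regions. For day 0-only regions it was 28.2% (27.5 to 29.0), against 22%. Runs (clusters) of at least 3 regions of 1 class, with gaps of at most 12500 bp and other regions allowed between them, numbered 744 at day 7, holding 2586 regions (17.1%), and 472 at day 0, holding 1595 regions (11.1%). Those of 6 or more numbered 32 at day 7 and 10 at day 0.

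The run with the most day 7-only regions held 12 of them and none of the other classes over 57.9 kb at Aqp3, the water and glycerol channel of basal keratinocytes (chr4:41051257-41109198). Their ranks ran from 20.6% to 92.1%, none had a day 0 summit within 1 kb, and 3 were called in the non-immobilized library. Of the 12, 7 lay nearest Aqp3, 4 nearest Aqp7 and 1 nearest Nol6. A run of 9 lay at Tns4, a tensin of epithelial adhesions (chr11:99076636-99128205), with 7 nearest Tns4, 2 nearest Ccr7 and 1 day 0-only region among them. Ets1, an ETS factor, had 8 (chr9:32705965-32750246), with 1 day 0-only region among them. A run of 8 (chr2:167805909-167857423) overlapped no protein-coding gene, with 6 of its regions nearest Ptpn1 and 2 nearest Cebpb. Runs of 7 lay at Myo1e, Nhsl1, Bach1 and Sap30bp, the last reaching into Itgb4, the hemidesmosome integrin gene. At day 0, the run of 10 at Sfi1 (chr11:3123063-3183662) is uncertain because Sfi1 has near-identical copies. Itih5, a hyaluronan-binding matrix protein gene, had 8 (chr2:10193380-10254001), 5 of them without a day 7 summit within 1 kb. Abca8b, Gper1 and Plekha6 had 7 each, of which 3, 5 and 3 lacked such a summit. The Plekha6 run also held 4 day 7-only regions and the Abca8b run 1. Vstm4, Chmp4b and Sh3pxd2a, an adaptor gene of invasive adhesions, had 6 each, with 1 day 7-only region in the last. The runs named by Abca8b and Chmp4b, the nearest genes, overlapped no protein-coding gene, and 2 of the 6 regions of the Chmp4b run lay nearest Raly.

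**Figure D3:**
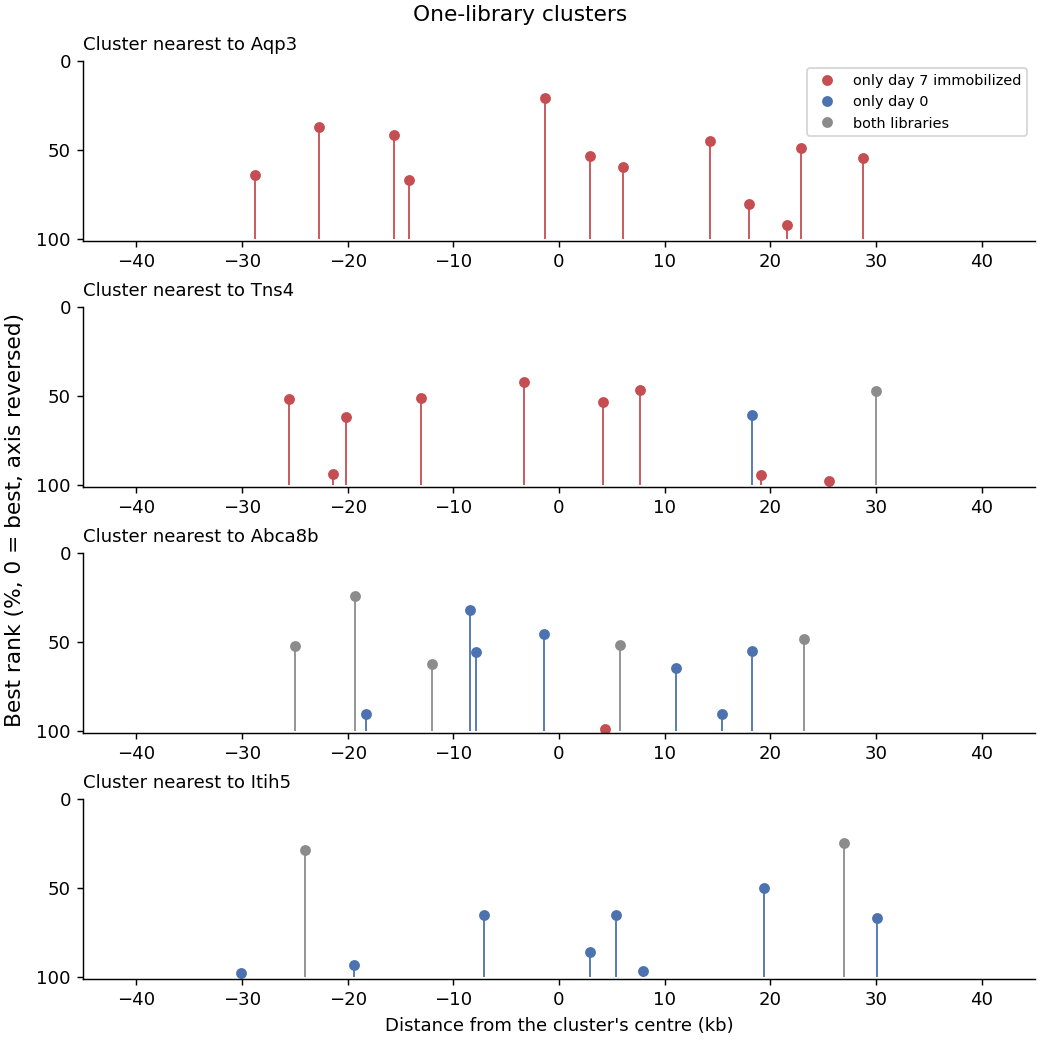
Best rank (vertical axis, percent, reversed so that tall lines are strong) against distance in kb from the middle of the cluster at Aqp3, Tns4, Abca8b and Itih5, for regions called only at day 7 immobilized, only at day 0 and in both. The Aqp3 run holds 12 day 7-only regions and no other region, and the Itih5 run holds 8 day 0-only regions.

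Day 7-only regions made up 51.3% of all one-library regions, from 47.9% (45.2 to 50.6) on chromosome 12 to 55.9% (53.0 to 58.8) on chromosome 16, and both of these intervals lay off the overall share.

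Each region was given to the protein-coding gene whose start or end lay nearest, up to 50 kb away. Of 15050 genes with a region, 4242 (28.2%) had more day 7-only than day 0-only regions 3632 (24.1%) had more day 0-only regions and 7176 (47.7%) had equal numbers, and 53.6% of the assigned one-library regions were of day 7. At least 5 regions on one side and none on the other were found for 62 genes at day 7 and 44 at day 0. In bulk libraries, fewer cells of a type and less open chromatin per cell cannot be told apart.

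Bach1, a heme-sensing repressor that binds AP-1-like elements, had 10 day 7-only, 0 day 0-only and 6 shared regions, and none of the 10 had a day 0 summit within 1 kb. Ets2, an ETS factor downstream of Ras signalling, had 11, 1 and 4, Nedd9, a focal adhesion scaffold, 11, 1 and 6, and Nfatc1, a calcineurin-regulated factor, 11, 1 and 10. Of their 11 day 7-only regions, 10, 11 and 9 had no day 0 summit within 1 kb. Cd44, the hyaluronan receptor, had 8 day 7-only and no day 0-only regions, as did Vdr, the vitamin D receptor, Amotl2, a YAP-binding angiomotin, and Slco2a1, a prostaglandin transporter. In each of these 4 genes, 7 of the 8 lacked such a summit. Atxn1 and Tns4 had 9 and 0 each, and all 9 lacked it. These genes also had shared regions, from 1 at Tns4 to 10 at Nfatc1.

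On the day 0 side Ebf2, a factor of mesenchymal and brown fat progenitors, had 1 day 7-only, 11 day 0-only and 4 shared regions, and 8 of the 11 had no day 7 summit within 1 kb. Eln, the elastin gene, had 8 day 0-only and 0 day 7-only regions, 5 of them without such a summit. Bmper, which encodes a BMP-binding secreted protein, had 7 and 0, with 6 lacking it, and Galnt16, a glycosyltransferase gene, 7 and 0, with all 7 lacking it. Cd82, a tetraspanin gene, had 9 and 0 (6 lacking it), Hunk, a kinase gene, 8 and 0 (5), and Steap4, a metalloreductase gene, 8 and 0 (4). Clmn had 7 and 0 (5), while only 2 of the 7 day 0-only regions of Rhoj, a small GTPase gene of endothelium, lacked a nearby day 7 summit. Among the better-ranked 50% of both lists the direction turned at Cd82 and Steap4.

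Marker genes of the MSC label and of other cell types were also counted. Having a region does not bear out a label, since 15050 of 20665 protein-coding genes on chromosomes 1 to 19 had a region. So did all 30 keratinocyte structural, 18 skeletal muscle and 17 endothelial genes, and 9 of 15 lymphoid genes. Of 24 mesenchymal progenitor genes, 23 had a region, with 85 shared regions, including 3 at Prrx1 and 2 at Pdgfra. Col1a1, a collagen gene on the osteogenic list, had 5 shared regions. Of 19 myeloid markers 13 had a region; Itgam, Lyz2, Ly6g, Csf3r, Fcer1g and Cd163 had none. The pan-leukocyte gene Ptprc had 2 day 7-only, 1 day 0-only and 1 shared region.

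Keratinocyte structural genes held 88 day 7-only, 10 day 0-only and 31 shared regions, so 89.8% (lower bound 82.0) of their one-library regions were of day 7, against 53.6% over all genes. More day 7-only regions were found at 26 of 30 genes and more day 0-only regions at 0. Of the 88, 87 had no day 0 summit within 1 kb, beside 13583 of all 15128 day 7-only regions. Of the 10, 4 had no day 7 summit within 1 kb, beside 8398 of all 14375 day 0-only regions. In the non-immobilized library 22 of the 88 (25%) were called, against 36.2% of all day 7-only regions. Pkp1, a desmosome plaque gene, had 9 day 7-only, 1 day 0-only and 2 shared regions, and Aqp3 had 7, 0 and 0. Cdh1, E-cadherin, had 6, 0 and 1, and Dsp, desmoplakin, 6, 1 and 2. Krt14 had 4 and Krt5 had 1, all of day 7 only.

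Epithelial transcription factor genes showed 57 day 7-only, 6 day 0-only and 20 shared regions (90.5%, 80.4 to 96.4), with more day 7-only regions at 16 of 18 genes and more day 0-only at 1. No day 0 summit lay within 1 kb of 55 of the 57, and no day 7 summit within 1 kb of 5 of the 6. Grhl3 had 7, 0 and 1, Tfap2a 7, 0 and 2, Ehf, an epithelial ETS factor, 6, 0 and 0, and Trp63, the master regulator of stratified epithelium, 4, 1 and 1. Of the 57, 9 (15.8%) were called in the non-immobilized library, against 36.2% of all day 7-only regions. These are markers of a cell type other than the labelled one, and their part in the day 7 results was not tested.

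AP-1 family genes, listed here with Batf, Atf3, Maf and Bach genes, had 33 day 7-only, 14 day 0-only and 56 shared regions (70.2%, 55.1 to 82.7). Bach1 gave 10 of the 33. More day 7-only regions were found at 9 of 16 genes and more day 0-only at 5. Immediate early and Ets genes had 45, 17 and 67 (72.6%, 59.8 to 83.1). Of the 45, Ets2 held 11, Ets1 9 and Elk3 7. More day 7-only regions were found at 9 of these 15 genes. More day 0-only regions were found at 4, namely Egr1, Nr4a1, Ier2 and Myc. Without a summit of the other list within 1 kb were 33 of the 33 day 7-only and 4 of the 14 day 0-only regions of the AP-1 list, and 41 of 45 and 7 of 17 of the other. Fosl2 had 3 day 7-only regions, the best at rank 18.3%, no day 0-only and 5 shared regions. Fos had 3, 4 and 10, Jun 3, 1 and 4, Atf3 3, 1 and 4, and Fosl1 only 2 shared ones. When regions were assigned only within 10 kb, these shares were 47.1% (23.0 to 72.2) and 52.2% (30.6 to 73.2), over 17 and 23 regions, against 54.1% of all genes, so neither list stood apart at that distance. The intervals also hold the shares found within 50 kb. Of 6 alternatives, the interval excluded the share of all genes in 2 for the AP-1 list and in 4 for the immediate early and Ets list. Inflammatory genes had 49, 23 and 86 (68.1%, 56.0 to 78.6) and mechanical signalling genes 54, 26 and 100 (67.5%, 56.1 to 77.6). Without a summit of the other list within 1 kb were 45 of 49 and 12 of 23 one-library regions of the inflammatory list, and 51 of 54 and 17 of 26 of the mechanical list. These shares depended on the settings: their intervals excluded the share of all genes in 3 of 6 alternatives for inflammatory genes and 0 of 6 for mechanical genes. In the better-ranked 50% of the lists they were 55.2% and 54.3%, where all genes gave 51.3%.

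Pericyte and smooth muscle genes went the other way, with 10 day 7-only, 32 day 0-only and 70 shared regions (23.8%, 12.1 to 39.5). More day 0-only regions were found at 11 of 20 genes and more day 7-only at 3. Of the 32 day 0-only regions, 16 had no deposited day 7 summit within 1 kb, beside 8398 of all 14375 day 0-only regions. Of the 10 day 7-only regions, 6 had no day 0 summit within 1 kb, beside 13583 of all 15128. Rgs5 had 0 day 7-only, 6 day 0-only and 1 shared region, 4 of the 6 without a day 7 summit within 1 kb. Abcc9 and Kcnj8, the subunits of the mural-cell potassium channel, had 0, 4 and 2 and 0, 3 and 2. Myh11, the smooth muscle myosin gene, had 0, 2 and 3, and both of the 2 had a day 7 summit nearby. The 3 genes with more day 7-only regions were Acta2 (2, 1 and 3), Tagln (1, 0 and 1) and Cspg4 (1, 0 and 8). Mesenchymal progenitor genes had 29, 59 and 85 (33.0%, 23.3 to 43.8), with more day 0-only regions at 14 of 24 genes and more day 7-only at 4. Such a summit was lacking at 34 of the 59 and 26 of the 29. Prrx1, a limb mesenchyme homeobox gene, had 2, 6 and 3, Pdgfra, a PDGF receptor gene, 1, 4 and 2, and Dpt, a dermal matrix gene, 0, 4 and 4, with 5, 2 and 1 of their day 0-only regions lacking a day 7 summit within 1 kb. The 4 genes with more day 7-only regions were Thy1 (4, 2 and 1), Nt5e (2, 0 and 1), Cd34 (2, 1 and 6) and Tcf7l2 (4, 1 and 6). The level of these 2 shares moved with the cut. With the lists as deposited they were 51.3% and 55.7%, where all genes gave 73.0%, and at the same score in both lists 44.1% and 50.6%, where all genes gave 73.7%.

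**Figure D4:**
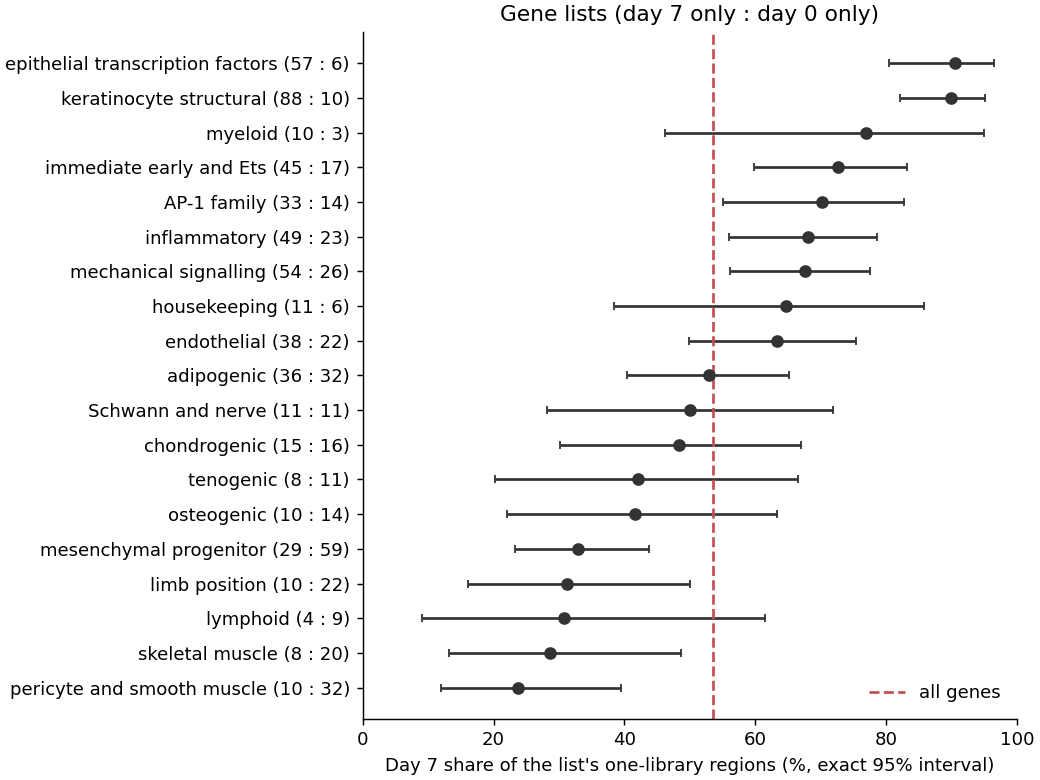
Share of one-library regions that were of day 7 immobilized, in percent with exact 95% intervals, for the 19 gene lists; the line marks the 53.6% of all genes. Keratinocyte structural and epithelial factor genes lie at 89.8% and 90.5%, pericyte and smooth muscle genes at 23.8%. The lists were chosen with earlier results of these data known.

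Skeletal muscle genes had 8, 20 and 44 (28.6%, 13.2 to 48.7) and limb position genes 10, 22 and 38 (31.2%, 16.1 to 50.01). Both lists kept an interval below the share of all genes in 2 of 6 alternatives. In the better-ranked 50% limb position genes were at 42.9% (17.7 to 71.1), where all genes gave 51.3%. Without a day 7 summit within 1 kb were 8 of the 20 and 9 of the 22 day 0-only regions. Both are smaller shares than the 8398 of all 14375 day 0-only regions. The intervals of the differentiation lists all held the share of all genes: adipogenic 52.9%, osteogenic 41.7%, chondrogenic 48.4% and tenogenic 42.1%. At their regulators, Runx2, of bone, had 1 day 7-only, 1 day 0-only and 3 shared regions, Sox9, of cartilage, 1, 3 and 2, Pparg, of fat, 0, 1 and 4, and Scx, of tendon, 0, 0 and 4. Endothelial genes had 38, 22 and 33 (63.3%, 49.9 to 75.4), with more day 7-only regions at 11 of 17 genes and more day 0-only at 5, and 65.8% of their day 7-only regions were also called in the non-immobilized library. Lymphoid genes had 4, 9 and 11, myeloid genes 10, 3 and 15, Schwann and nerve genes 11, 11 and 20, and housekeeping genes 11, 6 and 31; their intervals also held the share of all genes.

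The AP-1 palindrome divided the promoters that were called in a single library. Of 20085 promoter windows on chromosomes 1 to 19, 10357 held regions of both libraries, 572 of day 7 only, 394 of day 0 only, 5 were mixed and 8757 had none. TGANTCA occurred in 16.4% (13.5 to 19.7) of the day 7-only promoters and 4.31% (2.53 to 6.82) of the day 0-only ones. It occurred in 4.35% of those called in both, 9.75% of those called in neither and 7.06% of all. Base composition moved with the classes, with a median GC content of 55.7% at day 7 only, 58.7% at day 0 only and 62.7% in both. Within GC below 50% the shares were 26.3% (18.6 to 35.2) and 6.25% (1.73 to 15.2), from 50% to 60% they were 17.2% (12.7 to 22.5) and 5.23%, and above 60% 9.80% (6.09 to 14.7) and 2.82% (0.923 to 6.47). The intervals of the 2 classes overlapped in the highest band. The share was 14.5% in day 7-only promoters with a summit in the non-immobilized library and 18.2% in those without. No summit of the other deposited list lay within 1 kb at 461 of the 572 day 7-only promoters. At day 0 only, this held for 136 of the 394. Among these 461 and 136 promoters, the shares with TGANTCA were 19.5% (16.0 to 23.4) and 2.94% (0.807 to 7.36), the latter from 4 promoters. A match describes letters and shows no bound factor.

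**Figure D5:**
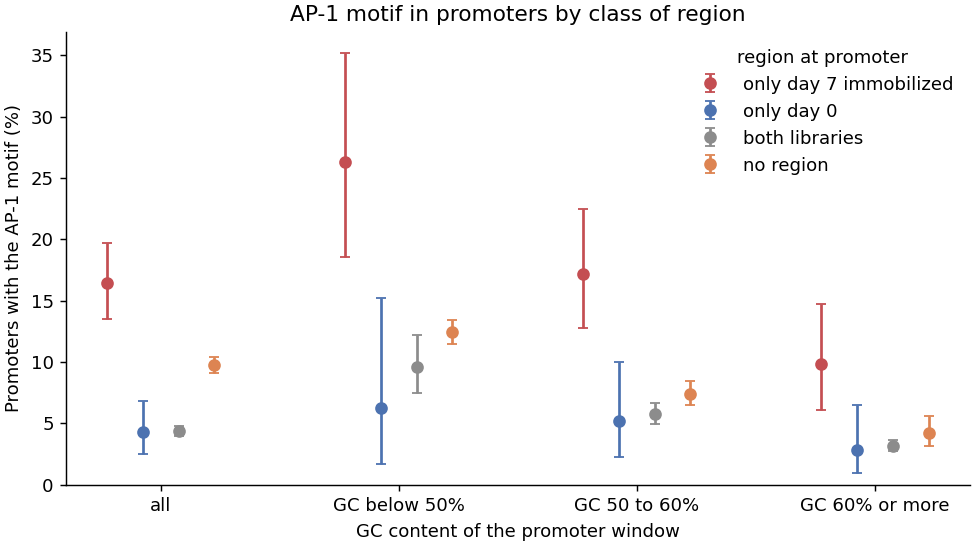
Share of promoters holding TGANTCA, in percent with exact 95% intervals, for promoters called only at day 7 immobilized, only at day 0, in both and in neither, in all and by band of GC content. Day 7-only promoters reach 16.4%, against 4.31% for day 0 only.

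Other motifs, searched on both strands, did not separate day 7-only from day 0-only promoters beyond their intervals. The ETS motif CCGGAAGT was in 1.40% (0.606 to 2.74) of day 7-only and 1.02% (0.277 to 2.58) of day 0-only promoters, against 9.21% of shared ones and 5.28% of all. The TEAD motif GGAATG was in 13.8% and 14.0%, the RUNX motif TGTGGT in 15.2% and 11.7%, and the grainyhead-type motif AACCNGTT in 2.27% and 1.52%. The shares over all promoters were 13.4%, 14.8% and 1.95%.

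Regions near miRNA genes, small RNAs that repress messenger RNAs through a seed at bases 2 to 8, were counted within 25 kb, a window chosen after the data were seen. Of 919 miRNA genes, 239 (26%) had more day 7-only and 274 (29.8%) more day 0-only regions. The epithelial miRNA gene Mir203 had 4 day 7-only, 0 day 0-only and 5 shared regions, with day 7-only ranks of 22.3% to 82.7% and no day 0 summit within 1 kb of the 4. Mir205, also epithelial, had 2, 0 and 1, and Mir200a, with Mir200b and Mir429 beside it and so sharing its regions, 2, 0 and 2. Mir200c, in the other miR-200 locus, had 3, 3 and 3. Mir206 and Mir133b, neighbouring muscle miRNA genes, had 0, 2 and 3, with 1 of the 2 lacking a day 7 summit within 1 kb. Mir675, inside H19, had 0, 5 and 0, but only 1 of the 5 lacked a deposited day 7 summit within 1 kb. The mature miRNAs of these loci are printed from RefSeq (GRCm38.p6) with the seed in capitals, to show that miR-200b-3p and miR-429-3p share 1 seed and miR-200a-3p has another.
miR-203-3p: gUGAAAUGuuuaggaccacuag
miR-205-5p: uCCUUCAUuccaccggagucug
miR-200a-3p: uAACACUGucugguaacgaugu
miR-200b-3p: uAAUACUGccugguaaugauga
miR-429-3p: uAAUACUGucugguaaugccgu
miR-206-3p: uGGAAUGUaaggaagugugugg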

How the data were processed

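Processed files of 2 ATAC-seq libraries were compared, with the non-immobilized day 7 library as a further readout, 1 library per group, grouped by the sample labels. The submitters' processing notes name Bowtie2 2.3.4.1, MACS2 2.1.2, SAMtools 1.2, bedtools 2.28.0, edgeR 3.26.5, FastQC, Trim Galore, cutadapt, Picard and mm10; parameters, transposase shift and peak threshold were not stated there. The authors deposited, per library, 1 bp summits with a score, taken as −log10 of a p-value or q-value because MACS2 summit files hold one there. It served for ranks inside 1 list, and for the strata and the same-score alternative. The deposited run statistics give read numbers as counts, duplication as a fraction and alignment as a percent, per the file headers.

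Kept summits were widened by 250 bp, merged across libraries, and called in a library if they held 1 of its summits. Absence means that no summit passed, not closed chromatin. Rank is given in percent from the top of the kept list, so small values are strong; a region takes its best summit. Start sites came from RefSeq promoter windows (GRCm38.p6) for 16457 of 20665 protein-coding genes, otherwise both gene ends were used, because the gene table has no strand. The motif was searched in those windows. Named genes were, per direction, the 10 with the largest difference of one-library counts divided by the square root of the total. Added were up to 4 per list by the absolute value of that measure, whatever the direction, and a fixed set. Krt5, Krt14, Dsp, Fos, Jun, Atf3, Fosl1, Myh11, Col1a1, Ptprc and the printed promoters were chosen after their values were seen. So were Thy1, Nt5e, Cd34, Tcf7l2, Acta2, Tagln, Cspg4, Flt1 and Egfl7. The members, the 19 lists (356 genes) and the miRNA window were chosen with earlier results of these data known. No enrichment test was run. Region building, distances and runs were tested on simulated data and returned 100% of 5000 regions, 500 distances and 60 runs. Alternatives covered list length, score, width, distance and run gap. Python 3.11.15 was used with pandas 2.3.3, numpy 2.4.6, matplotlib 3.10.9 and scipy 1.17.1.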

Additional observations from a re-analysis of the deposited data

How the results depend on the processing

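No paired analysis was possible because each group has 1 library. With the lists as deposited there were 25359 day 7-only regions; with the better 50% of the day 0 list length 6044 day 7-only, 5998 day 0-only and 19723 shared; at the same score 7257 day 0-only; and without a summit of the other deposited list within 1 kb 8398 day 0-only. The shares within 1 kb of a start, at day 7 only and day 0 only, were 5.68% and 3.98% with summits widened by 500 bp, 13.2% and 10.2% in the better 50%, 9.05% and 9.12% at the same score, 6.25% and 6.21% with promoter-table starts alone, and 5.79% and 3.38% without a nearby summit of the other list. The shares beyond 50 kb, in that order, were 31.5% and 41.5% with 500 bp, 29.0% and 33.0% in the better 50%, 27.0% and 33.4% with both ends of every gene, 42.6% and 50.4% with promoter-table starts alone and 31.5% and 42.9% without a nearby summit; day 7 was 32.0% with lists as deposited and day 0 37.0% at the same score. In each of these pairs day 0 was higher. Runs numbered 183 and 102 with a gap of 5 kb, 1336 and 983 with 25 kb, 1937 and 201 with lists as deposited, and 72 and 69 in the better 50%; day 0 had 136 without a nearby summit of the other list. Shares called in the non-immobilized library were 10.8% and 2.25% with the better 50% of that list, 29.0% and 14.9% with lists as deposited, 73.2% and 66.6% in the better 50% of both lists, and 34.6% and 11.8% without a nearby summit.

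Keratinocyte structural genes reached 95.6% without a nearby summit and 95.9% at the same score. Pericyte and smooth muscle genes reached 51.3% with lists as deposited and 44.1% at the same score, and mesenchymal progenitor genes 55.7% and 50.6%, each with an interval below the share of all genes; in the better 50% the mesenchymal interval (23.4 to 55.4) held the 51.3% of all genes. Within 10 kb the AP-1 list was at 47.1% and the immediate early and Ets list at 52.2%, and the difference at Elk3 was -1. In the better 50% it was 2 at Cd82 and 1 at Steap4, and 14 of the 20 genes with the largest differences kept their direction. The start-site alternatives, the same-score one for distances and gene lists, the nearby-summit one for distances and runs, and all but the first for the non-immobilized library were chosen after seeing the data. Causes were not tested, beyond what each setting changes by construction (fewer summits, shorter distances). Library depth and the 5.84 and 1.42 score floors limit what absence shows; without replicates, variation between animals or preparations is unknown.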

Other observations

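Among genes of mechanical sensing, Ddr2, a collagen receptor, had 3 day 7-only, 1 day 0-only and 5 shared regions. Ptk2, focal adhesion kinase, had 1, 3 and 8, and Yap1, a transcriptional co-activator, 1, 1 and 4. Endothelial genes were ordered by the difference divided by the square root of the total. Largest on the day 7 side were Pecam1 (6, 0 and 3) and Vwf (6, 1 and 2). Largest on the day 0 side were Erg (0, 3 and 6) and Esam (0, 3 and 2). By the plain difference, Flt1 (8, 3 and 1) equalled Vwf, and Egfl7 (1, 4 and 3) equalled Erg and Esam.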
